A study of Homo sapiens with 8 samples.

Results

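VPS37A and 9 further genes of the ESCRT machinery were followed in pancreatic cancer cells of the line MiaPaCa-2 after silencing of BARD1 with siRNA. They were 10 of the 25945 genes in the count table, taken by name: HGS of ESCRT-0, TSG101, VPS28, VPS37A, VPS37B and VPS37C of ESCRT-I, CHMP2B and CHMP4B of ESCRT-III, and the ATPase genes VPS4A and VPS4B. VPS37A was picked because it was among the largest decreases of this very comparison, at place 19 from the lowest log2 fold change of the 14528 genes tested. Its decrease is therefore a description and carries no test. The other 9 genes, called its partners here, were picked for their role, with results of these data known. All 10 passed the filter on low counts.

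ESCRT proteins bud membranes away from the cytosol and cut the necks of the buds. At endosomes ESCRT-0 gathers ubiquitinated receptors, ESCRT-I and ESCRT-II deform the membrane, ESCRT-III filaments close the neck and VPS4 takes the filaments apart, so that receptors such as EGFR reach the lysosome. The late steps also seal autophagosomes and separate daughter cells at the end of division. An ESCRT-I complex holds TSG101, VPS28, an MVB12 or UBAP1 subunit and a single VPS37 protein, which can be VPS37A, VPS37B, VPS37C or VPS37D.

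RNA was harvested 48 h after transfection and its polyadenylated part was sequenced. The 4 control libraries came from cells given a scrambled siRNA and labelled wild type, and the 4 BARD1 siRNA libraries from cells of the same line given siRNA against BARD1 and labelled as its knockdown. The sources used here give neither the sequences nor the number of the siRNAs, and do not say that replicates were separate cultures, so the spread behind each p-value may be technical. Total gene counts ran from 24458665 to 36212716. In bulk RNA, fewer cells with a transcript and less transcript per cell cannot be told apart.

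BARD1, the silenced gene, averaged 25.6 ± 3.26 CPM (read counts relative to the library total, scaled by TMM, ± SD over 4 libraries) with control siRNA and 3.96 ± 2.49 CPM with BARD1 siRNA (exact permutation test over 8 libraries, two-sided, p = 0.0286, the smallest the design allows). The libraries numbered 4 stood apart in both groups: 46.2% of all tested genes differed between them and the other 6. BARD1 was also silenced least there, with 36.5% of the control level left, against 8.02% to 13.3% for the other numbers. Of 6 epithelial markers KRT8, KRT18 and KRT19 were at 194 CPM or more in each library, while CDH1, EPCAM and KRT7 were below 0.5 CPM throughout. The 3 fibroblast markers summed to 0.617 to 2.04 CPM with control and 0.683 to 2.08 CPM with BARD1 siRNA. Of 4 leukocyte markers, PTPRC and CD3E were not among the genes counted, nor were the 3 acinar markers PRSS1, CPA1 and CELA3A. CD14 was at 15.6 and 18.8 CPM in the libraries numbered 4 and at most 5.19 CPM elsewhere. CD68 did not exceed 0.0339 CPM. Whether CD14 bears on the values below was not tested.

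VPS37A was lower in each BARD1 siRNA library than in any control library. None of its 9 partners passed the main test, where 5.05% of all tested genes did. That test left the library number out, and with the number as a block VPS4A and CHMP4B passed, where 23.6% of all tested genes did. VPS37A encodes an ESCRT-I subunit that, unlike its paralogues, starts with a UEV-like domain. It lies on GRCh37 chromosome 8, 17104080 to 17159936 (ENSG00000155975). Control libraries 1 to 4 gave 35.5, 32.6, 42.1 and 31.0 CPM, and BARD1 siRNA libraries 1 to 4 gave 10.3, 10.9, 9.81 and 14.9 CPM. The highest BARD1 siRNA library, number 4, was far below the lowest control, also number 4, and the groups did not overlap. The mean went from 35.3 ± 4.89 to 11.5 ± 2.31 CPM, 3.07-fold lower, at a log2 fold change of -1.62 (SE 0.16). Within pairs of one number the log2 difference was -1.79, -1.58, -2.10 and -1.06. It was smallest in pair 4, where BARD1 too was reduced least, but both libraries numbered 4 stood apart from the rest. Pairs 1 to 3 did not share this order: among them BARD1 was reduced most in pair 2, where VPS37A was reduced least. Whether the decrease of VPS37A follows that of BARD1 was not tested. Without both libraries numbered 4 the log2 fold change of VPS37A was -1.83. The authors' deposited table lists -1.42 for VPS37A and -1.81 for BARD1, where edgeR gave -1.62 and -2.69. The reason for the difference was not tested.

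Other transcripts touch VPS37A at its ends, on the opposite strand, and nothing states that the counting used strand. CNOT7, a deadenylase gene, shares 308 bases and held 2422 to 3752 reads per library, at a log2 fold change of -0.02 (SE 0.12, edgeR adjusted p = 0.959). MTMR7 shares 4398 bases and held 16 to 46 reads, against 284 to 1338 for VPS37A, with -0.97 (SE 0.35, edgeR adjusted p = 0.156) on the log2 scale, in the direction of VPS37A but not past the threshold.

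**Figure D1:**
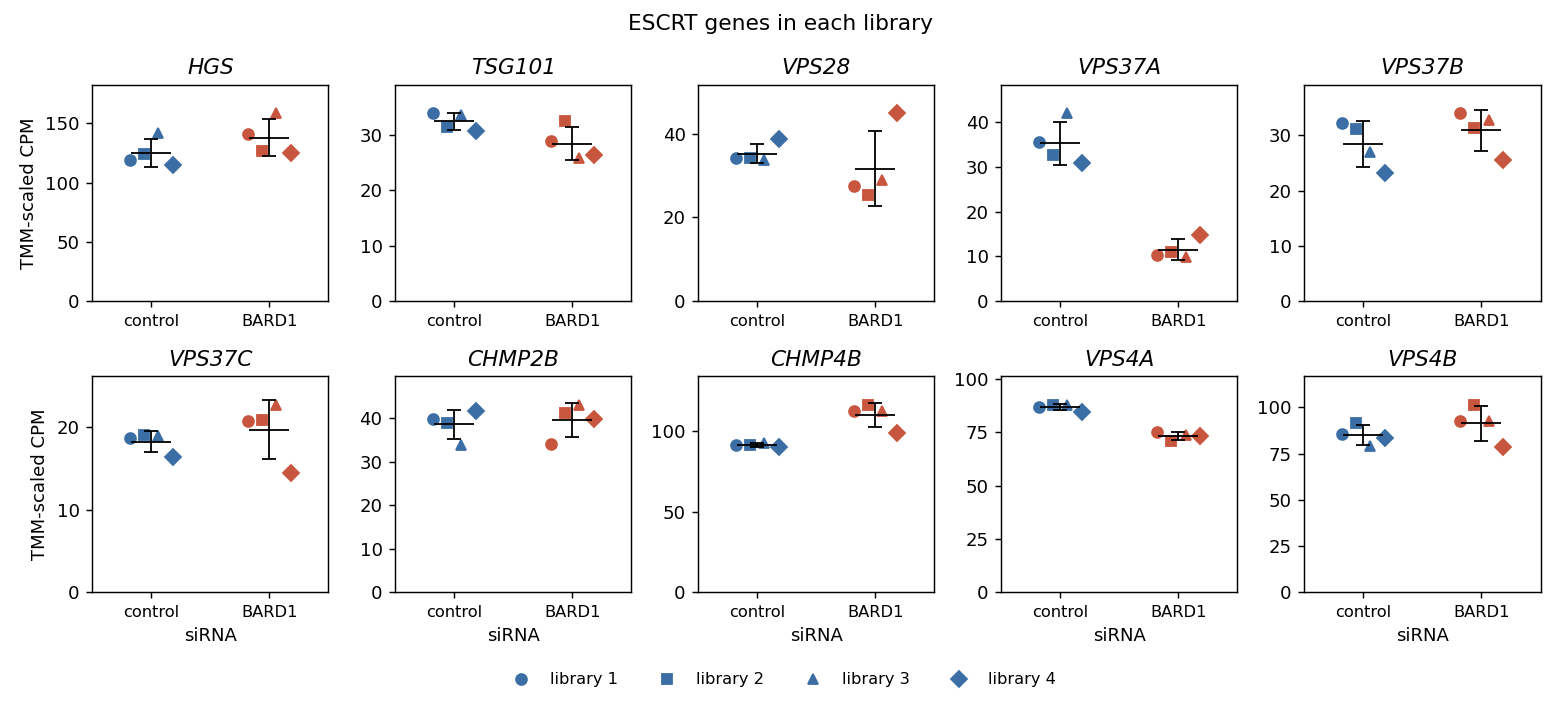
Level of each of the 10 ESCRT genes in TMM-scaled CPM (vertical axes) in the 4 control and 4 BARD1 siRNA libraries, with the library number as the marker shape and the mean ± SD of each group. VPS37A, picked for its decrease, lies at 31.0 to 42.1 CPM with control siRNA and at 9.81 to 14.9 CPM with BARD1 siRNA. The groups overlap in 7 of the 10 genes. Among all tested genes they were apart in 7.52% on the lower and 5.46% on the higher side.

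The paralogues that can stand in the place of VPS37A in ESCRT-I did not pass the test. VPS37B (chromosome 12, 123349882 to 123380991) gave 32.3, 31.1, 27.0 and 23.2 CPM in control libraries 1 to 4 and 34.0, 31.4, 32.8 and 25.5 CPM with BARD1 siRNA. Each BARD1 siRNA library was above its like-numbered control, but the ranges overlapped, and library 4 was the lowest of each group (log2 fold change 0.12, SE 0.13, edgeR adjusted p = 0.702). VPS37C (chromosome 11, 60897728 to 60929089) gave 18.7, 19.0, 18.9 and 16.4 CPM and 20.7, 20.9, 22.7 and 14.4 CPM in the same order. Its BARD1 siRNA libraries 1 to 3 were above all controls and library 4 below them all (0.11, SE 0.15, adjusted p = 0.778). At 2 SE on either side, the log2 difference spans -0.14 to 0.39 in VPS37B and -0.18 to 0.40 in VPS37C. VPS37D, at 5.17 ± 1.59 and 5.42 ± 2.45 CPM, did not pass either (0.07, SE 0.33, adjusted p = 0.955).

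Divided by gene length, VPS37A made up a smaller share of the summed level of the 4 VPS37 genes with BARD1 siRNA. Its share was 26.6, 25.1, 32.3 and 26.0% in control libraries 1 to 4 and 8.75, 9.98, 8.74 and 13.8% in BARD1 siRNA libraries 1 to 4. The mean was 27.5 ± 3.28% against 10.3 ± 2.39% (SD, n = 4). VPS37B went from 35.8 ± 3.82% to 44.9 ± 4.26% and VPS37C from 24.3 ± 0.728% to 30.1 ± 5.12%. The summed level was 26.1 ± 1.26 and 22.8 ± 0.886 CPM per kilobase, 87.2% of the control. Shares contain VPS37A itself, so they restate its decrease on another scale.

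**Figure D2:**
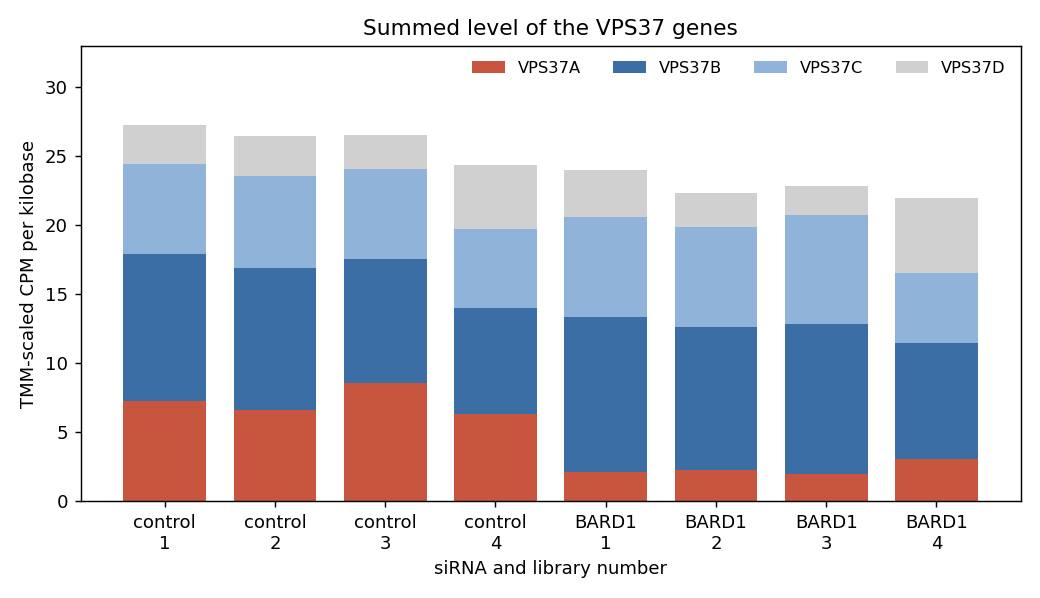
TMM-scaled CPM per kilobase of gene length (vertical axis) of VPS37A, VPS37B, VPS37C and VPS37D, stacked for each of the 8 libraries. The VPS37A segment is 6.32 to 8.57 in the control libraries and at most 3.03 in the BARD1 siRNA libraries.

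The fixed partners of VPS37A in ESCRT-I did not pass the test. TSG101, which binds ubiquitin and the PTAP motifs of viral and cellular proteins, lies on chromosome 11, 18489883 to 18548779. Control libraries gave 34.0, 31.5, 33.6 and 30.8 CPM and BARD1 siRNA libraries 28.9, 32.5, 25.9 and 26.5 CPM. BARD1 siRNA library 2 lay within the control range and the other 3 below it (log2 fold change -0.19, SE 0.10, edgeR adjusted p = 0.338). VPS28, which links ESCRT-I to ESCRT-II, lies on chromosome 8, 145649000 to 145653931. Its controls gave 34.1, 34.2, 33.7 and 38.6 CPM and its BARD1 siRNA libraries 27.5, 25.3, 28.9 and 44.9 CPM. Number 4 was the highest library of each group and the only pair in which BARD1 siRNA was the higher (-0.15, SE 0.17, adjusted p = 0.719). Without both libraries numbered 4, VPS28 was at -0.32 and passed the threshold (edgeR adjusted p = 0.00571).

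HGS, also called HRS, is the ESCRT-0 subunit that binds ubiquitinated receptors and phosphatidylinositol 3-phosphate, and lies on chromosome 17, 79650356 to 79670168. Control libraries 1 to 4 held 119, 124, 142 and 115 CPM and BARD1 siRNA libraries 1 to 4 held 141, 127, 159 and 125 CPM. Each BARD1 siRNA library was above the control of its number, but the ranges overlapped and HGS did not pass (0.14, SE 0.10, edgeR adjusted p = 0.527).

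In ESCRT-III, CHMP4B was apart between the groups and CHMP2B was not. CHMP4B, the main subunit of the filament, lies on chromosome 20, 32399110 to 32442172. It gave 90.9, 91.4, 92.3 and 89.8 CPM with control siRNA and 112, 116, 112 and 98.7 CPM with BARD1 siRNA. All 4 BARD1 siRNA libraries were above all 4 controls, number 4 by the least, yet CHMP4B missed the threshold (0.27, SE 0.07, edgeR adjusted p = 0.0725). It passed with the replicate number as a block (edgeR adjusted p = 0.00521) and without both libraries numbered 4 (adjusted p = 0.000119). CHMP2B, which recruits VPS4 and is mutated in a familial frontotemporal dementia, lies on chromosome 3, 87276421 to 87304698. It ranged from 33.8 to 41.8 CPM with control siRNA and from 34.0 to 43.2 CPM with BARD1 siRNA, nearly the same interval (0.04, SE 0.10, adjusted p = 0.915).

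The paralogous ATPases that take ESCRT-III apart differed in pattern too. VPS4A (chromosome 16, 69333562 to 69358949) gave 86.7, 87.6, 87.8 and 84.4 CPM in control libraries 1 to 4 and 74.9, 70.6, 73.7 and 73.2 CPM in BARD1 siRNA libraries 1 to 4. The groups did not overlap, yet VPS4A missed the threshold (log2 fold change -0.24, SE 0.06, edgeR adjusted p = 0.0621). It passed with the block (edgeR adjusted p = 0.00783) and without both libraries numbered 4 (adjusted p = 0.00177). SNTB2 on the same strand and COG8 on the opposite strand overlap its span, introns included, by 9394 and 4907 bases, with 2329 bases of VPS4A counted. The exon part of the overlap was not determined, so the count of VPS4A is less certain. SNTB2 and COG8 had log2 fold changes of -0.002 and -0.14. VPS4B (chromosome 18, 61056423 to 61089716) ranged from 79.3 to 91.7 CPM with control siRNA and from 78.4 to 101 CPM with BARD1 siRNA (0.10, SE 0.09, adjusted p = 0.641). It was above its control in pairs 1 to 3 and below it in pair 4. For CHMP4B and VPS4A the authors' deposited table lists log2 fold changes of 0.26 and -0.23, with adjusted p-values of 0.0453 and 0.0413.

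Over the 10 genes, 1 passed an adjusted p of 0.05 in edgeR, VPS37A itself, where 5.05% of all tested genes did, 1.82% higher and 3.22% lower. Nothing is read from that count, since VPS37A was picked on this comparison. Of the 9 partners 0 passed, while VPS4A (lower) and CHMP4B (higher) had an unadjusted p under 0.05, as did 9.82% of all tested genes on the lower and 9.08% on the higher side. DESeq2 called the same 2 partners, 1 lower and 1 higher, and by that test 5.9% of all genes were lower and 4.76% higher. The log2 fold changes of the partners ran from -0.24 to 0.27 with a median of 0.10, against 0.01 over all tested genes. The ranges of the groups were apart in 3 of the 10 genes, 2 lower and 1 higher. Among all tested genes the same held for 7.52% lower and 5.46% higher. With the replicate block VPS37A, VPS4A and CHMP4B passed, where 23.6% of all genes did, 11.0% higher and 12.6% lower. Without both libraries numbered 4 these and VPS28 passed, where 30.4% did, 15.0% higher and 15.4% lower.

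**Figure D3:**
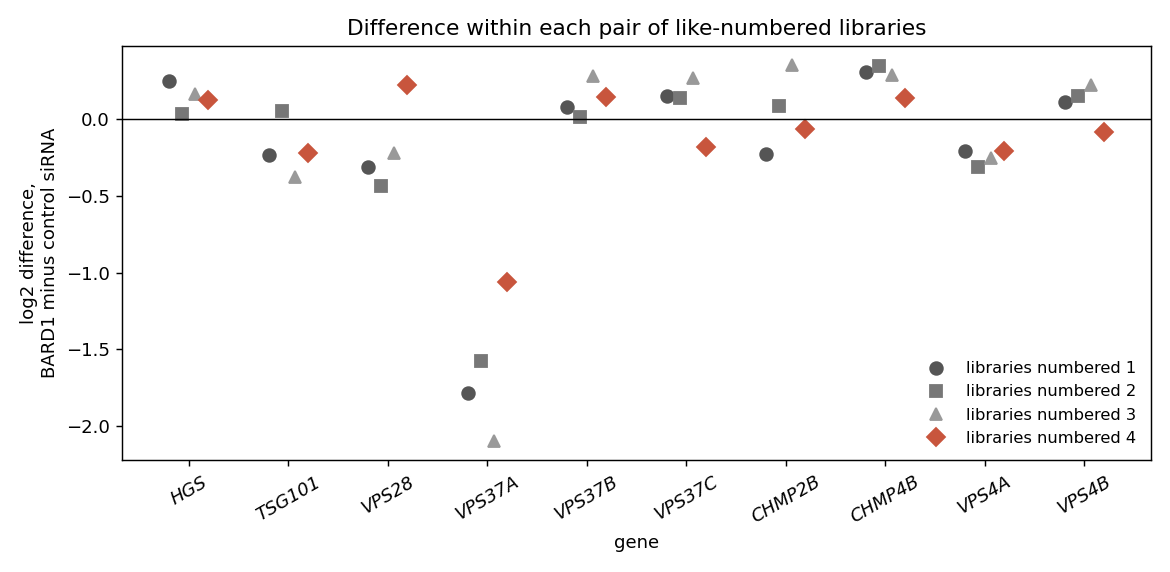
Difference in log2 CPM between the BARD1 siRNA and the control library of each number (vertical axis) for the 10 genes, with number 4 in red. VPS37A lies between -2.10 and -1.06 in the 4 pairs, while those of VPS28 run from -0.44 to 0.22.

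The library number gave a contrast that the choice of VPS37A did not use. With siRNA as a term in the fit, VPS28 was higher and VPS37B and VPS37C were lower in the libraries numbered 4 than in the other 6. These are 3 of the 10 genes, where 22.1% of all tested genes were higher and 24.1% lower. The log2 difference was 0.46 in VPS28 (SE 0.10, edgeR adjusted p = 0.00132). It was -0.37 in VPS37B (SE 0.09, edgeR adjusted p = 0.00394) and -0.38 in VPS37C (SE 0.11, adjusted p = 0.0104). VPS37A did not pass, at 0.13 (SE 0.14, edgeR adjusted p = 0.490). The fit takes number 4 to shift both groups alike. For VPS37A number 4 was the lowest control, at 31.0 CPM, and the highest BARD1 siRNA library, at 14.9 CPM.

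Per kilobase of gene length, the control level was highest in CHMP4B, at 55.3 ± 0.628 CPM per kilobase (SD, n = 4), and lowest of the 10 in VPS37C, at 6.37 ± 0.428. HGS at 42.0 ± 3.99, VPS4A at 37.2 ± 0.665 and VPS4B at 25.6 ± 1.56 came after CHMP4B, each with its lowest control library above the highest of the next gene. TSG101 at 15.5 ± 0.748, VPS28 with a range of 14.4 to 16.5 and CHMP2B at 14.8 ± 1.31 overlapped and could not be ordered. VPS37A at 7.19 ± 0.997 overlapped both VPS37B at 9.40 ± 1.37 and VPS37C, and could not be ordered against them. The lowest control library of VPS37B, at 7.67, was above the highest of VPS37C, at 6.63. With BARD1 siRNA VPS37A was the lowest of the 10, at 2.34 ± 0.471 CPM per kilobase, below the lowest library of VPS37C at 5.04.

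In the wider ESCRT machinery CHMP3 was the other gene that passed. Of 21 other ESCRT genes tested 1 was lower, 0 were higher and 20 did not pass (edgeR), with a median log2 fold change of -0.01. Of all tested genes 3.22% were lower and 1.82% higher. At an unadjusted p under 0.05, 3 were higher and 1 lower, where 9.08% of all tested genes were higher and 9.82% lower. DESeq2 called 1 higher, MVB12B, and 1 lower, CHMP3, where it called 4.76% of all genes higher and 5.9% lower. CHMP3, an ESCRT-III subunit that acts with CHMP2A late in neck closure, fell from 38.2 ± 3.87 to 25.2 ± 3.54 CPM (-0.60, SE 0.12, edgeR adjusted p = 0.0231). Its controls, 33.6 to 43.1 CPM, lay above its BARD1 siRNA libraries, 21.1 to 29.6 CPM. It missed the threshold in 6 of the 8 fits that left out 1 library (adjusted p up to 0.0921). RNF103 overlaps the span of CHMP3, introns included, on the same strand by 20474 bases, with 3171 bases of CHMP3 counted. RMND5A overlaps it by 950 bases on the opposite strand and held 1589 to 3218 reads, against 610 to 1349 for CHMP3. The log2 fold change of RMND5A was 0.37 (SE 0.12, edgeR adjusted p = 0.116). MVB12B, an ESCRT-I subunit, was at 17.3 ± 3.05 and 24.4 ± 3.24 CPM with ranges apart (0.50, SE 0.15, edgeR adjusted p = 0.0945). The ESCRT-II subunit VPS36 was at 71.3 ± 9.52 and 88.8 ± 11.8 CPM (0.32, SE 0.13, edgeR adjusted p = 0.210). With the block MVB12B (edgeR adjusted p = 0.00185), VPS36 (adjusted p = 0.00130) and CHMP1B were called higher and CHMP3 lower. The block called 11.0% of all genes higher and 12.6% lower. Leaving out both libraries numbered 4, the fit called 5 higher and 1 lower, where 15.0% and 15.4% of all genes were. Among the 5 were MVB12B (edgeR adjusted p = 0.000838) and VPS36 (adjusted p = 0.000382).

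**Figure D4:**
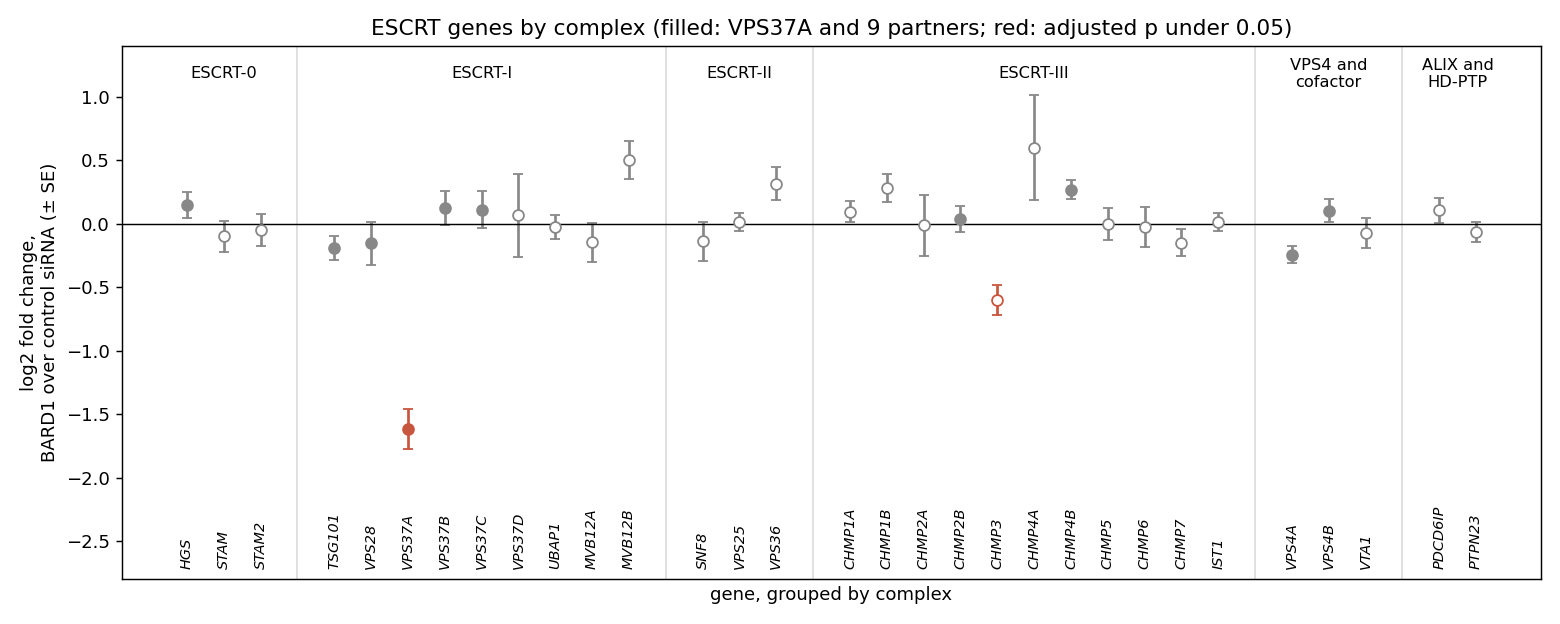
Log2 fold change, BARD1 over control siRNA, with its SE (vertical axis), for 31 ESCRT genes grouped by complex, filled for VPS37A and its partners and red where the adjusted p was under 0.05. VPS37A at -1.62 and CHMP3 at -0.60 are red, and the other genes lie between -0.24 and 0.60. The highest, CHMP4A (SE 0.41), was at only 0.33 to 0.97 CPM over the libraries.

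Of 14 enzymes and adaptors that work with ESCRT, 1 was lower and 0 were higher (edgeR, median 0.05). Of all tested genes 3.22% were lower and 1.82% higher. At an unadjusted p under 0.05, 2 were higher and 4 lower, against the 9.08% and 9.82% of all tested genes. DESeq2 called 2 higher and 3 lower, where it called 4.76% of all genes higher and 5.9% lower. The replicate block called 2 and 4, where 11.0% and 12.6% of all genes were called. Without both libraries numbered 4 the counts were 4 and 4, where 15.0% and 15.4% of all genes were called. STAMBP, also called AMSH, a deubiquitinase that can rescue receptors from sorting, fell from 59.2 ± 3.25 to 41.5 ± 4.14 CPM (-0.51, SE 0.09, edgeR adjusted p = 0.0154). It missed the threshold in 5 of 8 fits without 1 library (adjusted p up to 0.0689). Its relative STAMBPL1 was at 30.5 ± 6.14 and 18.6 ± 4.14 CPM (-0.71, SE 0.20, edgeR adjusted p = 0.0716), and passed with the block (adjusted p = 0.000138) and without both libraries numbered 4 (adjusted p = 8.13e-06). USP8, another deubiquitinase of this step, was at 0.06 (SE 0.13, edgeR adjusted p = 0.875). The 2 genes called higher with the block were SDCBP (0.47, edgeR adjusted p = 0.00146) and ARRDC1 (0.38, adjusted p = 0.00134). Neither passed the main test (edgeR adjusted p = 0.110 and 0.0752).

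Among endosomal genes outside ESCRT, RAB5A and VPS33A fell. Of 15 genes of endosome identity 1 was lower and 0 higher (edgeR, median 0.10), where 3.22% of all tested genes were lower and 1.82% higher. At an unadjusted p under 0.05, 3 were higher and 2 lower, where 9.08% and 9.82% of all tested genes were. By DESeq2 2 were higher and 1 lower, with the block 3 and 2, and 5 and 2 without both libraries numbered 4. In that order, these fits called 4.76%, 11.0% and 15.0% of all genes higher and 5.9%, 12.6% and 15.4% lower. RAB5A, a GTPase of early endosomes, gave 41.2, 47.4, 43.6 and 32.6 CPM in control libraries 1 to 4 and 23.1, 23.8, 21.8 and 21.0 CPM with BARD1 siRNA. Number 4 was the lowest library of both groups, and the groups were apart (-0.88, SE 0.12, edgeR adjusted p = 0.00463). Its paralogues RAB5B (0.26, SE 0.13, adjusted p = 0.348) and RAB5C (0.19, SE 0.11, adjusted p = 0.401) did not pass in edgeR, though RAB5C was called higher without both libraries numbered 4 (0.22, adjusted p = 0.0329). Of 16 genes of retromer, HOPS and CORVET, which return cargo from endosomes or tether them, 1 was lower and 0 higher (median -0.03), with 2 each way at an unadjusted p under 0.05, against the same shares of all genes. DESeq2 called 1 each way, while 2 each way were called with the block and also without both libraries numbered 4. For each fit the shares of all genes were those given above for endosome identity. VPS33A, of HOPS and CORVET, fell from 14.2 ± 1.08 to 8.60 ± 0.897 CPM (-0.72, SE 0.13, edgeR adjusted p = 0.0157). RAB5A passed in all 8 fits without 1 library and VPS33A in 2 of them (adjusted p up to 0.0663).

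In the abscission list, genes of the midbody and central spindle that prepare the last cut between daughter cells, 2 of 13 were lower and 0 higher (edgeR). Of all tested genes 3.22% were lower and 1.82% higher. All 13 log2 fold changes were below 0, with a median of -0.35, against 0.01 over all tested genes. KIF20A, a mitotic kinesin gene, fell from 241 ± 50.2 to 135 ± 26.8 CPM (-0.84, SE 0.19, edgeR adjusted p = 0.0342). CIT, the citron kinase gene, fell from 117 ± 10.8 to 78.9 ± 9.63 CPM (-0.57, SE 0.11, edgeR adjusted p = 0.0201). CEP55, which brings TSG101 and ALIX to the midbody, was at 196 ± 46.5 and 139.9 ± 45.6 CPM (-0.49, SE 0.27, edgeR adjusted p = 0.381). CEP55 was lower in each of the 4 pairs, by log2 differences of -0.60, -0.31, -0.42 and -0.77, and passed with the replicate block (-0.52, edgeR adjusted p = 0.000153) and without both libraries numbered 4 (-0.44, adjusted p = 3.44e-06). At an unadjusted p under 0.05, 6 of the 13 were lower, where 9.82% of all tested genes were. By DESeq2 3 were lower, where 5.9% of all genes were. With the block it was 11, where 12.6% of all genes were lower. Without both libraries numbered 4 it was 10, with a median of -0.32, where 15.4% were. None of these called a higher gene. The libraries numbered 4 were lower than the rest in 12 of the 13 genes as well, with a median of -0.59, where 24.1% of all genes were lower. Most of the list thus moved together in that contrast too, so the 13 signs are not separate observations. KIF20A and CIT each passed in 2 of 8 fits without 1 library (adjusted p up to 0.123 and 0.0895), and BRD8 overlaps KIF20A by 268 bases on the opposite strand. BRD8 held 2815 to 4143 reads and was itself lower (-0.36, SE 0.07, edgeR adjusted p = 0.0215).

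The 3′ untranslated region (3′ UTR) of VPS37A holds the 8-letter word ATACAGAA at 2 places, the first from base 127 of 3038. The word comes from an earlier look at these data, where it was frequent in 3′ UTRs of genes lower with BARD1 siRNA, so its counts are a description with no test. Among 12056 tested genes with a 3′ UTR in GENCODE release 29, 6.02% held the word on the transcript strand. It was in 28.1% of the 456 genes called lower, in 6 of the 250 called higher and in 5.22% of the rest. Its reverse complement, TTCTGTAT, was in 11.4%, 9.20% and 9.08% of these classes. Of 2022 genes with a 3′ UTR within 25% of the length of that of VPS37A, 9.54% held the word and 11 held it more than once. None of the 9 partners held it.

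Of the 89 genes in the 6 lists 6 held the word, and 4 of these were lower: VPS37A, CHMP3, VPS33A and RAB5A. Leaving out VPS37A, which was picked for its decrease, it was 3 of 5, where 128 of all 726 tested genes with the word were lower (17.6%). Nothing is read from these counts, since the word itself came from genes lower in this same comparison. USP8 and PIK3C3, a lipid kinase gene of early endosomes, held it and did not pass (PIK3C3 at 0.31, SE 0.08, edgeR adjusted p = 0.0567), while STAMBP, KIF20A and CIT were lower without it. PIK3C3 was called higher with the replicate block (edgeR adjusted p = 0.00858), without both libraries numbered 4 (adjusted p = 0.000225) and by DESeq2 (adjusted p = 0.00376). The first site in each gene but VPS37A is shown to let the sites of lower and other genes be compared, with 10 bases on each side, 5′ to 3′ on the transcript strand, from GENCODE transcripts on GRCh38. Capitals mark the word.
RAB5A chr3:19983940-19983967 (plus strand): caagtttctaATACAGAAttattttaag
CHMP3 chr2:86504144-86504171 (minus strand): ttatagaatcATACAGAAtagtttcact
VPS33A chr12:122232131-122232158 (minus strand): aaacatgggaATACAGAAtatattctgg
PIK3C3 chr18:42084409-42084436 (plus strand): ctataattatATACAGAAaatatactga
USP8 chr15:50508646-50508673 (plus strand): caaagatgtaATACAGAAgatttaaaaa
The sites begin at base 127 of 1352 in RAB5A, 1643 of 2373 in CHMP3 and 98 of 2682 in VPS33A. They begin at base 3282 of 6693 in PIK3C3 and 9568 of 15331 in USP8. USP8 was counted over 5848 bases in all, so its site may lie outside the counted transcript and its place among the 5 is uncertain. Whether the word bears on any level was not tested.

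**Figure D5:**
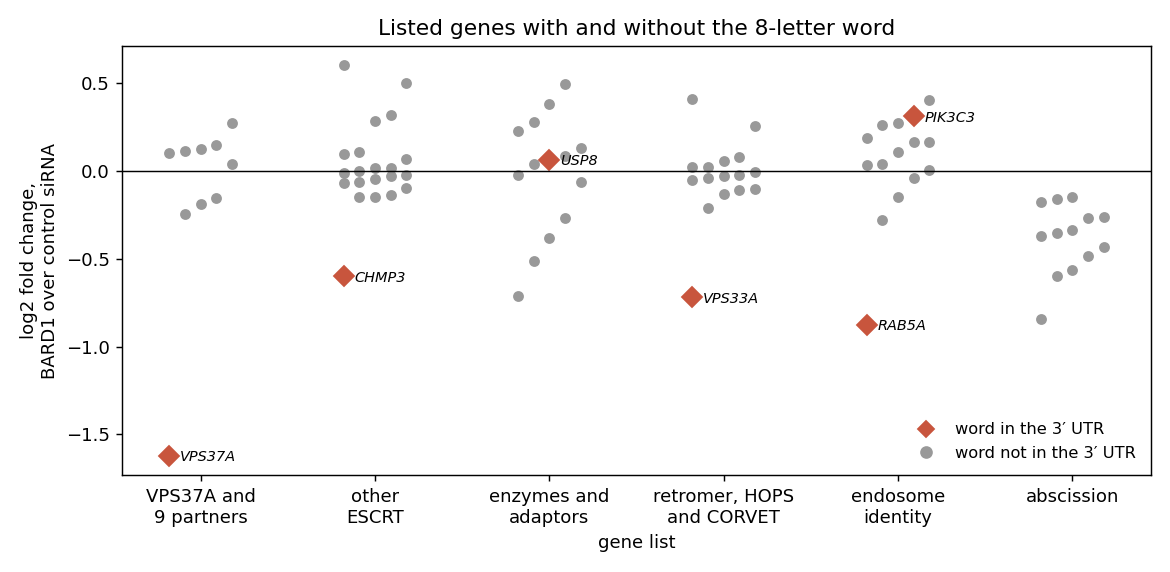
Log2 fold change, BARD1 over control siRNA (vertical axis), of the 89 genes in 6 lists, with genes whose 3′ UTR holds the word ATACAGAA as named red diamonds and the others as grey points. VPS37A, CHMP3, VPS33A and RAB5A lie between -1.62 and -0.60, and USP8 and PIK3C3 at 0.06 and 0.31.

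The 5 genes most like VPS37A over the 8 libraries, by Pearson correlation of log2 CPM among 10146 genes of at least 5 CPM on average, were DGKE at 0.994, C9orf78, NAPA and CANX at 0.992 each and ZBTB7A at 0.991. They were chosen on the same 8 libraries, 2 siRNA groups included, so that sharing the pattern of VPS37A is fixed by the choice. DGKE, a diacylglycerol kinase gene, was at 46.9 ± 5.59 and 19.0 ± 3.07 CPM (± SD, 4 libraries each), and C9orf78 at 87.7 ± 6.33 and 34.2 ± 6.13 CPM. NAPA, which encodes the membrane fusion factor alpha-SNAP, was at 80.4 ± 1.62 and 43.8 ± 4.33 CPM. The word was in the 3′ UTRs of C9orf78 and CANX and not in those of DGKE, NAPA and ZBTB7A.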

How the data were processed

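The submitters' processing notes name fastp, HISAT2 2.0.5, featureCounts and the build GRCh37 (hg19), and neither the annotation release nor the strand setting. The authors deposited whole-number read counts per gene, FPKM that equal count over length and column total to a relative difference of 5e-12, and the log2 fold change and p-value of each gene in their comparison. Another 8 per-sample columns were not used, and 22217 rows named no gene and held 0 reads. Counts of 14528 genes kept by filterByExpr were tested with edgeR 4.0.16 (R 4.3.3): TMM scaling, two-sided quasi-likelihood F-test, Benjamini-Hochberg adjustment over all genes, threshold 0.05. Each SE is the one its F statistic implies. Log2 CPM for correlations had a prior count of 2. The 3′ UTR was the longest among basic protein-coding transcripts of a gene. CHMP4C was not analysed here. The test was tried on simulated counts first, and libraries of a group differed by more than sampling noise (chi-square per degree of freedom of 6.06 or more).

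Genes and lists were chosen with earlier results of these data known. Named were BARD1, the 10 genes, of each other list up to 4 called genes with the smallest p, and the 5 genes most like VPS37A. Other listed genes were named after their values were seen. Deviations from the group means correlated between like-numbered libraries at 0.49, 0.487, 0.596 and 0.856 for numbers 1 to 4 (10146 genes). The numbers in the labels were therefore taken to pair the libraries in the block fit and in the pair differences. This rests mostly on number 4, since unlike numbers among 1 to 3 gave 0.366 to 0.51. The main test left the number out, so a gene that missed its threshold could pass with the block. Alternatives were DESeq2 1.42.0, other scalings and filters, the replicate block and left-out libraries.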

Additional observations from a re-analysis of the deposited data

Results flagged for a closer look

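Over the 22 named genes and both siRNAs, 44 sets of 4 libraries were examined, and in 6 of them a library lay far from its group (Dixon's criterion, which chance meets in about 1 of 20 sets, here 2.2). Each time it was the library numbered 4. Among controls it was high for VPS28, at 38.6 CPM with the others at 33.7 to 34.2. It was low for VPS37C, at 16.4 CPM with the others at 18.7 to 19.0, for BARD1, at 20.8 CPM with the others at 26.9 to 28.0, and for KIF20A, at 167 CPM with the others at 259 to 275. With BARD1 siRNA it was low for CIT, at 64.5 CPM with the others at 83.2 to 84.1, and high for CANX, at 439 CPM with the others at 261 to 286.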

How the results depend on the processing

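The log2 fold change of VPS37A ran from -1.83 to -1.52 over 15 alternatives. Of 315 values of 21 named genes, 272 kept direction and side of the threshold, 29 lost the threshold, each on leaving out a library numbered 1 to 3, and 12 gained it. The other 2 were CHMP2B, which turned sign without control siRNA library 3 (-0.018) and BARD1 siRNA library 3 (-0.0082), in a range of -0.02 to 0.10 without 1 library. Upper-quartile scaling called 2 of the 10 ESCRT genes and 9 of 44 endosomal and abscission genes, in place of 1 and 4, and split all calls 413 higher to 470 lower instead of 265 to 468. A filter of 1 CPM in 4 libraries called 2 and 8, with 859 of the 12570 genes it tested. DESeq2 called 1549 of all genes (10.7%) in place of 733 (5.05%). It called 3 of the 10, 8 of the 44 and 7 in place of 2 of 35 other ESCRT and enzyme genes. With the replicate block 3430 of all genes (23.6%), 3 of the 10, 10 of the 35 and 20 of the 44 were called. Without both libraries numbered 4 it was 4428 (30.4%), 4, 14 and 21. Leaving out 1 library gave 178 to 2506 of all genes, 1 to 4 of the 10, 0 to 7 of the 35, 1 to 11 of the 44, and -3.21 to -2.50 for BARD1, with the highest counts without BARD1 siRNA library 4. On CPM not divided by length VPS37A made up 40.4% of the VPS37 sum with control and 17.1% with BARD1 siRNA. The causes were not tested.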
